A study of Mus musculus with 12 samples.

Results

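The genes described here are 9 members of solute carrier family 22 in mouse liver, namely Slc22a5, Slc22a7, Slc22a18, Slc22a23, Slc22a26, Slc22a27, Slc22a28, Slc22a29 and Slc22a30. They were taken by gene symbol from a count table of 27304 genes, and all 9 were among the 13641 genes with enough counts to be tested. Total RNA of 12 livers was sequenced in 4 groups of 3, which were Apoe-/-AhR-/- males, Apoe-/- males, Apoe-/-AhR-/- females and Apoe-/- females. All 12 mice carried the Apoe-/- genotype, which removes a carrier protein of plasma lipoproteins, and all were kept for 12 weeks on the diet labelled HFD. The Apoe-/-AhR-/- mice, called Ahr-null here, also lacked by label the aryl hydrocarbon receptor, a ligand-activated transcription factor, and the Apoe-/- mice are called controls. The labels name neither the alleles nor a promoter or Cre line, and they give no age beyond the weeks on diet. The comparison addresses what loss of the receptor does to liver transcripts. In bulk liver RNA, fewer cells of a type and less RNA per cell cannot be told apart.

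Slc22 proteins are membrane carriers that move organic cations, organic anions and zwitterions such as carnitine across the plasma membrane. In hepatocytes they take part in the uptake and release of metabolites, drugs and conjugated steroids. Rodents have a group of extra copies related to the organic anion transporters, and many liver genes of steroid and drug handling differ between male and female rodents, in part through the sex-specific pattern of growth hormone release.

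The members fell into 4 single genes and 1 group of neighbours on the mouse genome build GRCm38. Slc22a5 encodes the sodium-dependent carnitine transporter OCTN2 and lies on chromosome 11 from 53864542 to 53891660. Slc22a7 encodes the organic anion transporter OAT2 and lies on chromosome 17 from 46432183 to 46438457. Slc22a18, a member of an imprinted domain whose protein has no settled substrate, lies on chromosome 7 from 143473736 to 143499334, between Phlda2 and Cdkn1c. Slc22a23, an orphan member, lies on chromosome 13 from 34179158 to 34345182. The other 5 members, rodent-specific relatives of the organic anion transporters whose substrates are little known, were the only protein-coding genes annotated in 624.071 kb of chromosome 19, from 7781041 to 8405111. Slc22a26 (7781041 to 7802667), Slc22a27 (7864388 to 7966027), Slc22a28 (8062209 to 8131982), Slc22a29 (8160165 to 8218900) and Slc22a30 (8335371 to 8405111) all lie on the minus strand. With gene models that lack an established name left out, the nearest tested genes outside the cluster were Pla2g16 at 192.496 kb and Slc3a2 at 301.771 kb.

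The chromosome 19 members are close copies, which bears on how their reads could be assigned. The coding sequences of Slc22a28 and Slc22a30 were 98.8% identical, and those of Slc22a27 and Slc22a29 97.3%. Other pairs among these 4 genes were 91.7% to 92.4% identical, Slc22a26 was 73.7% to 74.2% identical to them, and Slc22a5, Slc22a7, Slc22a18 and Slc22a23 were 51.6% to 58.7% identical to any other member. Of the 50-base stretches in its transcripts, Slc22a28 shared 53.9% with other genes, Slc22a30 34.2%, Slc22a27 29.9%, Slc22a29 28.7%, Slc22a5 26.3% (with Slc22a21 and Slc22a4) and Slc22a26 6.21%. Slc22a7, Slc22a18 and Slc22a23 shared none. How reads that fit several copies were counted is unknown from the sources at hand, so the split of counts among Slc22a27, Slc22a28, Slc22a29 and Slc22a30 is uncertain.

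The likeness reached into the promoters of Slc22a28, Slc22a29 and Slc22a30. RefSeq promoter windows (GRCm38.p6) were at hand for 8 of the 9 members. Over 294 aligned bases the windows of Slc22a28 and Slc22a30 were 98.0% identical, whereas Slc22a29 was 81.0% identical to Slc22a28 over 263 bases and 81.7% identical to Slc22a30 over 257 bases. The other 7 pairs in the cluster, Slc22a27 with Slc22a29 among them, aligned over at most 99 bases. The 250 bases before the start of 4 cluster genes are shown, 5′ to 3′ on the minus strand, to set the near-identical pair beside its more distant copy and beside the gene with the strongest sex difference. Slc22a30 (chr19:8405106-8405355) stands as the comparison sequence. Capitals in Slc22a28 (chr19:8131983-8132232) and Slc22a29 (chr19:8218901-8219150) mark bases that differ from the aligned base of Slc22a30 or are missing from it inside the aligned stretch. The bases ahead of that stretch, at the left end of both sequences, have no aligned base in Slc22a30 and are left in lower case. Capitals in Slc22a26 (chr19:7802668-7802917) mark the match to a STAT dimer motif.
Slc22a30: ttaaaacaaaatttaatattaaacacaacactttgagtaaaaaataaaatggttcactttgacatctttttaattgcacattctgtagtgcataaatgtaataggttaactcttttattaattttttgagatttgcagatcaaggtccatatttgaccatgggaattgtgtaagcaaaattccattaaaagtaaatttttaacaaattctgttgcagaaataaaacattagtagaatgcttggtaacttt
Slc22a28: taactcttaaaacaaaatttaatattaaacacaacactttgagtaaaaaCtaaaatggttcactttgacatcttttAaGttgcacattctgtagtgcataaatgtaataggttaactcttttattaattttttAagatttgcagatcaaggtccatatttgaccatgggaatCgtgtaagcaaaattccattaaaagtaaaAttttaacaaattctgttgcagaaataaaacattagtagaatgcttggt
Slc22a29: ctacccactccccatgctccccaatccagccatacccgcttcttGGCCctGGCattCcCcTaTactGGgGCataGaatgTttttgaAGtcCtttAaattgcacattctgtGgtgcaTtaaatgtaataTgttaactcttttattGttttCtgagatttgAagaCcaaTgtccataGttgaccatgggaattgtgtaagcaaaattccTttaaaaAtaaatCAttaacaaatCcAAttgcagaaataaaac
Slc22a26: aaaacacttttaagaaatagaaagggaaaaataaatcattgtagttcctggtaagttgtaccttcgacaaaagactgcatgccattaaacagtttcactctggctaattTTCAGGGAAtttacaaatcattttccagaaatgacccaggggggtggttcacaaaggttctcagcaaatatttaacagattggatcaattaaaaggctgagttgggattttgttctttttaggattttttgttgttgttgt

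In the windows of 300 bases, which also hold the 50 bases after the start, 5 motifs were searched on both strands. The STAT dimer motif TTCNNNGAA, the site type bound by growth hormone-activated STAT5, was found in 1 of the 8 windows, that of Slc22a26 (TTCAGGGAA, at position -141 from the start), and in 8.30% of all 32851 windows. The AHR core GCGTG was found in 1 of the 8 windows, with 2 matches in Slc22a5, and in 32.4% of all windows. The palindromic HNF1 motif, the HNF4 motif CAAAGTCCA and the PPAR direct repeat motif were in none of the 8 windows, and in 0.00913%, 0.475% and 0.0396% of all windows. A match is a description of letters, and no match says only that these letters are not in this window.

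The libraries held 9794253 to 18924880 counts each. Levels are CPM, counts scaled to a common total with TMM factors, and 1 count equalled 0.0395 to 0.109 CPM. Fold changes are log2 values with their standard error from edgeR's quasi-likelihood model, taken as Ahr-null minus control for genotype and as male minus female for sex, and a call means an adjusted p under 0.05 over all tested genes (Benjamini-Hochberg). The counts of Ahr (12.4 to 25.0 CPM over the 12 libraries) did not test the genotype, since whole-gene counts cannot show the loss of an exon. A pair of libraries stood apart. Summed over 20 neuron and glia markers, all of them detected in both, Ahr-null female replicate 1 held 659 CPM and control male replicate 1 held 298 CPM of the unscaled total, while no other library left the range of 57.2 to 96.4 CPM. The correlation of Ahr-null female replicate 1 with the rest of its group was 0.805 and 0.811, where all remaining replicate pairs reached 0.938 to 0.979. This library also went partly against its sex label. It had 155 CPM of Xist, the RNA that coats the inactive X chromosome, where the 6 males had 2.33 to 13.3 CPM and the 5 remaining females 679 to 1292 CPM. Of the Y-linked Kdm5d it had 2.02 CPM, where males had 5.21 to 8.61 CPM and no remaining female passed 0.207 CPM. It had 2.11 CPM of the Y-linked Eif2s3y (males 29.6 to 47.5 CPM, remaining females at most 0.982 CPM). Of the Y-linked Uty it had 0.551 CPM (males 5.27 to 9.75 CPM, remaining females at most 0.436 CPM). Its 1.84 CPM of the Y-linked Ddx3y lay among the remaining females (0.120 to 2.51 CPM) and below the males (37.8 to 72.0 CPM). Results that turn on these libraries are given with and without them. The 8 hepatocyte markers, all detected in every library, summed to 28770.3 to 62866 CPM of the unscaled total in Ahr-null males and 15987 to 28825 CPM in control males, and to 32778 to 82289 CPM in Ahr-null females and 12425 to 21752 CPM in control females. The list did not share that difference evenly. After TMM scaling the averaged genotype fold change was positive for 6 of the 8 and negative for 2, with a median of 0.21. Of the 8, edgeR called 0, against 1.06% of all tested genes, and 2 had an unadjusted p under 0.05, against 15.3%. Alb, the albumin gene, was at 1.14 ± 0.38 (edgeR adjusted p = 0.184). Cyp2e1, a cytochrome P450 gene, was at -1.23 ± 0.32 (adjusted p = 0.0939, and 0.0391 without both libraries with neural transcripts). The 5 kidney tubule markers summed to at most 1.54 CPM in any library, and Umod was at 0 in all 12.

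Compared per kilobase of exon, Slc22a18 and Slc22a30 were the highest of the 9 members in every group. Slc22a30 had 46.9 ± 15 CPM per kb (SD, n = 3) in Ahr-null males and 85.5 ± 19.5 in control males, and 22.7 ± 10.5 in Ahr-null females and 64.1 ± 1.71 in control females. Slc22a18 had 75.3 ± 5.90 CPM per kb in Ahr-null males and 80.5 ± 3.88 in control males, and 92.4 ± 44.8 in Ahr-null females and 68.4 ± 6.28 in control females. Their order changed with the group, since Slc22a30 led in control males and Slc22a18 in the other 3 groups, and in control males and control females the libraries of these genes overlapped. In males Slc22a28 came next, with 9.26 ± 5.02 CPM per kb in Ahr-null males and 17.6 ± 4.32 in control males. Slc22a26 was the lowest member in males, at 0.0532 ± 0.0134 CPM per kb in Ahr-null males and 0.181 ± 0.123 in control males. In females Slc22a26 reached 4.46 ± 3.80 CPM per kb in Ahr-null livers and 15.1 ± 4.12 in control livers, where it came after Slc22a18 and Slc22a30. The remaining members lay between 0.371 and 10.4 CPM per kb in all group means.

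**Figure D1:**
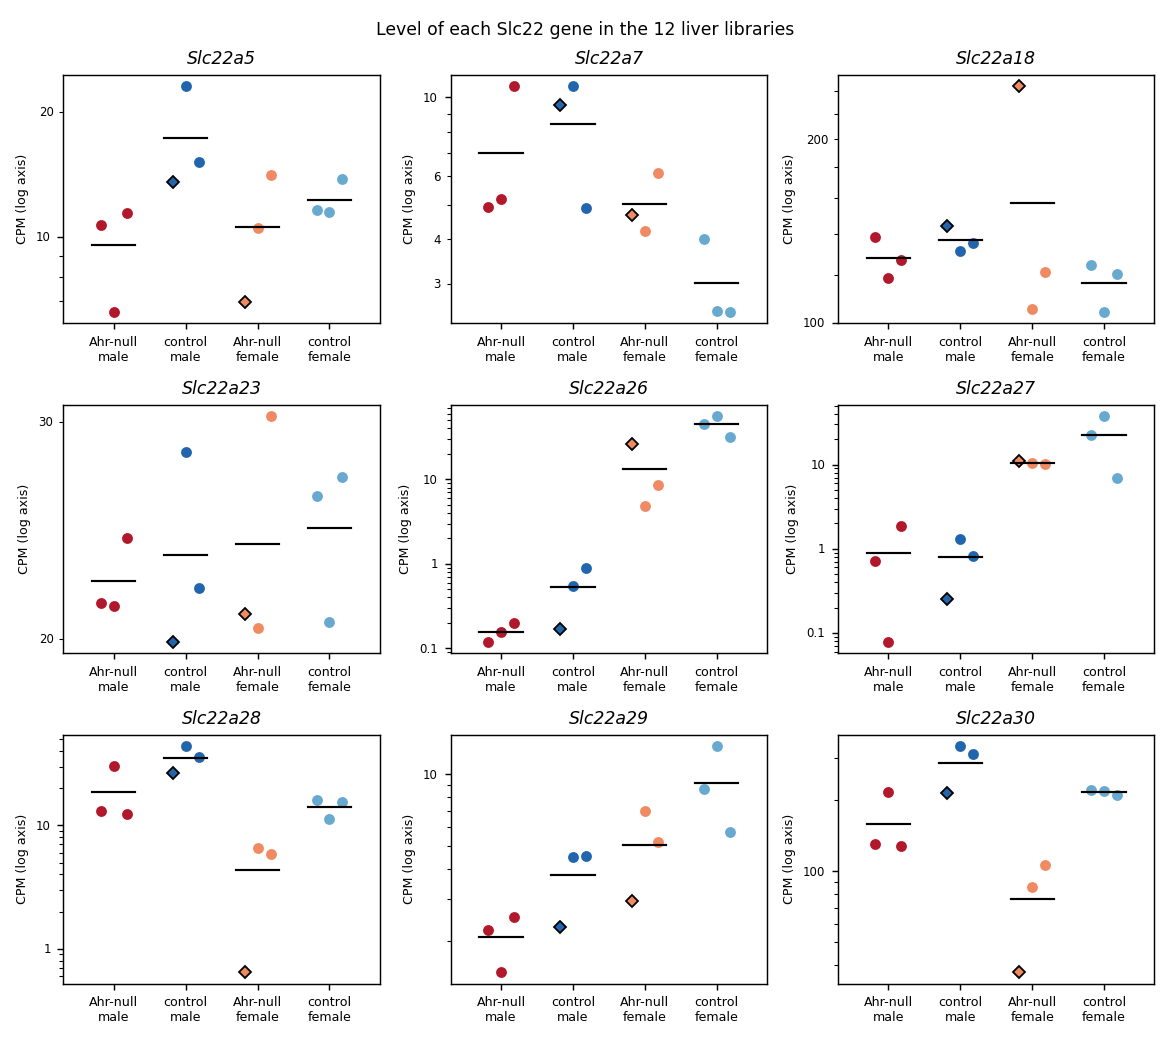
Level of each of the 9 Slc22 genes in CPM (log axis) in every library, with Ahr-null left of control in each sex, bars for group means and black-edged diamonds for the libraries with neural transcripts (Ahr-null female replicate 1 and control male replicate 1). Slc22a26 and Slc22a27 part the sexes, Slc22a30 lies lower in Ahr-null females (at most 107 CPM) than in control females (at least 209 CPM), and Slc22a23 overlaps in all groups.

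Slc22a30 had the smallest genotype p of the members. Its level was 130.5, 216 and 127 CPM in Ahr-null males, against 214, 338 and 313 CPM in control males. In females it was 37.3, 85.6 and 107 CPM in Ahr-null livers, against 219, 219 and 209 CPM in control livers. Every Ahr-null female lay below every control female, and in males a single Ahr-null liver, replicate 2, lay just inside the control range. Averaged over the sexes, Slc22a30 had a log2 fold change of -1.18 with a standard error of 0.27 (edgeR adjusted p = 0.0589), so it was not called. It was called without Ahr-null female replicate 1 (-1.01 ± 0.20, adjusted p = 0.0135), without Ahr-null male replicate 2 (-1.32 ± 0.28, adjusted p = 0.0400) and without both libraries with neural transcripts (-1.09 ± 0.20, adjusted p = 0.0127).

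Slc22a28, its near-identical neighbour, had a lower level and the same order of groups within each sex. It had 13.1, 30.2 and 12.4 CPM in Ahr-null males, against 26.5, 43.8 and 35.7 CPM in control males. In females it had 0.643, 6.56 and 5.85 CPM in Ahr-null livers, against 16.0, 11.2 and 15.4 CPM in control livers. The groups did not overlap in females, and in males Ahr-null replicate 2 lay above control replicate 1. The lowest of all values was that of Ahr-null female replicate 1. The averaged log2 fold change was -1.31 ± 0.40 (edgeR adjusted p = 0.150). Without that library the gene was called, at -1.06 ± 0.24 (adjusted p = 0.0238), and likewise without both libraries with neural transcripts, at -1.14 ± 0.24 (adjusted p = 0.0238).

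Slc22a26, a gene read mostly in females, had lower values in Ahr-null females. There it had 25.9, 4.87 and 8.67 CPM, against 45.7, 56.1 and 31.9 CPM in control females. The groups did not overlap, and the Ahr-null liver nearest to the controls was replicate 1, a library that stood apart. In males it had 0.118, 0.155 and 0.197 CPM in Ahr-null livers, from 10 counts over the group, against 0.168, 0.542 and 0.892 CPM in control livers, from 23 counts. The averaged log2 fold change was -1.77 ± 0.50 (edgeR adjusted p = 0.117) and that in females -1.77 ± 0.52 (adjusted p = 0.181), so neither was called. Without Ahr-null female replicate 1 both were called, at -2.23 ± 0.35 (adjusted p = 0.00399) averaged and -2.70 ± 0.37 (adjusted p = 0.00360) in females. Without both libraries with neural transcripts the values were -2.42 ± 0.32 (adjusted p = 0.00283) averaged and -2.70 ± 0.32 (adjusted p = 0.00140) in females.

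The other members of the cluster were not called for genotype. Slc22a29 had 2.21, 1.47 and 2.53 CPM in Ahr-null males, against 2.27, 4.49 and 4.52 CPM in control males, and the groups overlapped through a single control liver. In females Slc22a29 had 2.94, 6.98 and 5.19 CPM in Ahr-null livers, against 8.63, 13.1 and 5.74 CPM in control livers, again with overlap. Its averaged log2 fold change was -0.85 ± 0.29 (edgeR adjusted p = 0.188). Slc22a27 had 10.9, 10.3 and 10.2 CPM in Ahr-null females, which were nearly equal, against 22.4, 37.6 and 6.91 CPM in control females, which spread on either side of them. In males Slc22a27 had 0.710, 0.0776 and 1.86 CPM in Ahr-null livers, against 0.253, 1.32 and 0.828 CPM in control livers. Its averaged log2 fold change was -0.43 ± 0.52 (adjusted p = 0.752), smaller than its standard error.

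Among the single genes, the carnitine transporter gene Slc22a5 differed most by genotype in males. It had 10.7, 6.59 and 11.4 CPM in Ahr-null males, against 13.6, 23.1 and 15.2 CPM in control males. In females it had 6.98, 10.5 and 14.1 CPM in Ahr-null livers, against 11.6, 11.5 and 13.7 CPM in control livers. The male groups did not overlap and the female groups did. The log2 fold change was -0.85 ± 0.31 in males (edgeR adjusted p = 0.677) and -0.53 ± 0.22 averaged (adjusted p = 0.267). Neither passed the test.

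Slc22a7, an anion carrier of the hepatocyte's blood-facing membrane, went the other way in females. It had 4.68, 4.21 and 6.13 CPM in Ahr-null females, against 4.0, 2.51 and 2.50 CPM in control females. The groups did not overlap, and the log2 fold change of 0.73 ± 0.40 did not pass (edgeR adjusted p = 0.421). In males it had 4.93, 5.20 and 10.8 CPM in Ahr-null livers, against 9.51, 10.8 and 4.91 CPM in control livers. These ranges lay on top of each other.

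The imprinted gene Slc22a18 had 138, 119 and 127 CPM in Ahr-null males, against 144, 131 and 135 CPM in control males. In females it had 244, 105 and 121 CPM in Ahr-null livers, against 124, 104 and 120.2 CPM in control livers. Only Ahr-null female replicate 1 left a narrow range shared by the other 11 libraries. The log2 fold change in females, 0.43 ± 0.32 (edgeR adjusted p = 0.557), was -0.019 ± 0.22 without that library. Slc22a23 kept within 19.9 to 30.3 CPM in all 12 libraries, and its averaged log2 fold change was -0.06 ± 0.17 (adjusted p = 0.919).

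**Figure D2:**
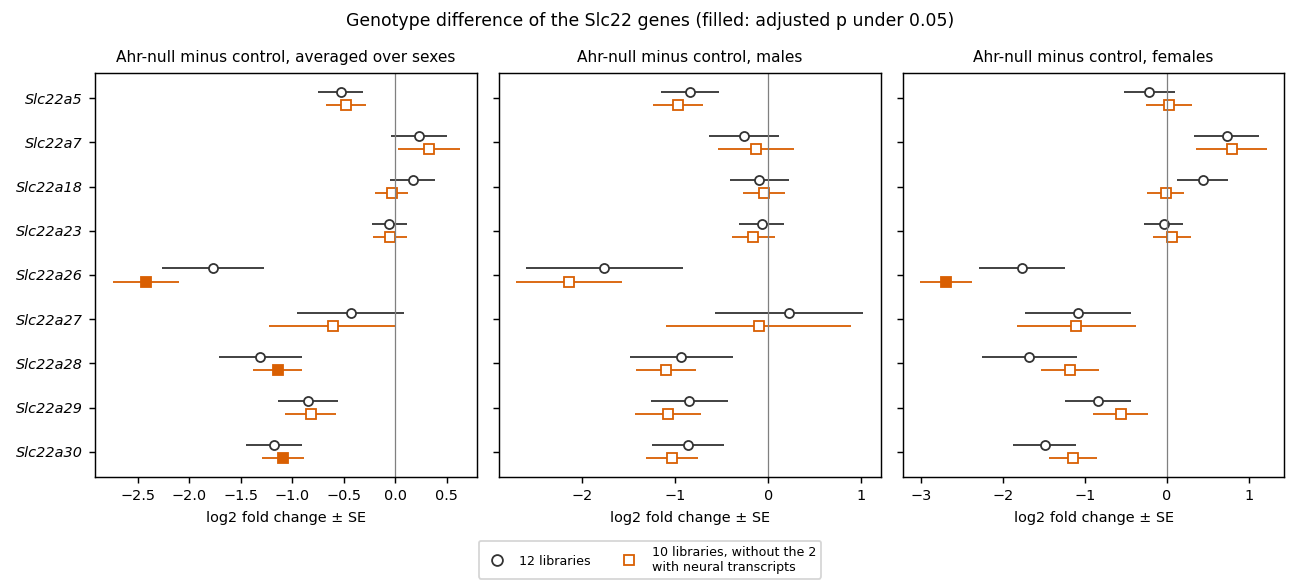
Log2 fold change of each Slc22 gene, Ahr-null minus control, with its standard error, averaged over the sexes and in males and females; circles are the fit of 12 libraries, squares that of the 10 without neural transcripts, and filled symbols have an adjusted p under 0.05. No circle is filled, and the squares of Slc22a26, Slc22a28 and Slc22a30 are filled in the average.

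Counted over the members, 0 of the 9 were called by edgeR for the genotype averaged over the sexes, where 1.06% of all tested genes were. At an unadjusted p under 0.05 there were 5 of the 9 (Slc22a5, Slc22a26, Slc22a28, Slc22a29 and Slc22a30), against 15.3% of all genes. DESeq2 called 3 (Slc22a26, Slc22a28 and Slc22a30, against 4.87% of all genes), limma on the deposited variance-stabilised values called 1 (Slc22a30, against 1.24%), and limma-voom called 0. Without both libraries with neural transcripts edgeR called Slc22a26, Slc22a28 and Slc22a30, against 3.14% of all genes. Without Ahr-null female replicate 1 it called these 3 as well, against 4.78%, and without Ahr-null male replicate 2 it called Slc22a30, against 1.99%. The fold change was negative in 7 of the 9, against 45.8% of all genes, and the median was -0.53 for the members and 0.04 for all genes. With libraries scaled by their totals alone, the median of all genes moved to 0.53. The signs of Slc22a23 and Slc22a27 then turned, to 0.42 and 0.16, while relative to the median of all genes all 9 members kept the sign they had relative to it with TMM. The members share reads and a cluster, so these counts are not 9 separate results.

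By sex, edgeR called 0 of the 9 for genotype in males, where 0.0367% of all genes were called. In males 2 members had an unadjusted p under 0.05 (Slc22a5 and Slc22a30, against 5.81% of all genes), or 5 without both libraries with neural transcripts (Slc22a26, Slc22a28 and Slc22a29 as well, against 8.0%), and DESeq2 and both limma fits called 0. Only Slc22a5 had groups without overlap, lower in Ahr-null males, against 7.34% of all genes that did so. In females edgeR called 0 of the 9, against 0.161% of all genes, and 3 members had an unadjusted p under 0.05 (Slc22a26, Slc22a28 and Slc22a30, against 14.4%). DESeq2 called Slc22a30 in females (adjusted p = 0.00593, against 3.60% of all genes), and both limma fits called 0. Slc22a26 was the 1 member that edgeR called in females without Ahr-null female replicate 1, against 1.10% of all genes, and without both libraries with neural transcripts, against 1.71%. Slc22a26, Slc22a28 and Slc22a30 lay without overlap below the control females, against 9.86% of all genes, and Slc22a7 above them, against 9.22%. The log2 fold changes in females were -1.68 ± 0.58 for Slc22a28 (edgeR adjusted p = 0.227; -1.18 ± 0.35 without both libraries) and -1.50 ± 0.39 for Slc22a30 (adjusted p = 0.142).

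Whether the genotype difference itself depended on sex was tested as an interaction, the genotype log2 fold change in males minus that in females. No member was called, by edgeR, DESeq2 or either limma fit, against 0.00733% of all genes called by edgeR, and 0 members had an unadjusted p under 0.05 in edgeR, against 4.60% of all genes. The largest values were 1.31 ± 1.03 for Slc22a27, -0.99 ± 0.55 for Slc22a7 and 0.75 ± 0.79 for Slc22a28 (edgeR adjusted p = 0.999 each). For Slc22a26 the interaction was 0.01 (adjusted p = 0.999), and its sign changed when single libraries were left out (-0.38 to 0.93). Without both libraries with neural transcripts 1 member, Slc22a5, had an unadjusted p under 0.05, against 7.27% of all genes. Its interaction was then -0.99 ± 0.38 (edgeR adjusted p = 0.643), from -0.97 ± 0.27 in males and 0.023 ± 0.28 in females, against -0.63 ± 0.44 in all 12 libraries. The value of Slc22a28 was then 0.075 ± 0.47, that of Slc22a27 1.0 ± 1.22 and that of Slc22a7 -0.92 ± 0.59. With standard errors of this size, a missed threshold does not show that the sexes were alike.

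The strongest contrast among the members was that between the sexes, in either genotype. Slc22a26 was lower in males, with a male minus female log2 fold change of -6.30 ± 0.73 in Ahr-null livers (edgeR adjusted p = 0.00286) and -6.31 ± 0.68 in control livers (adjusted p = 0.000780). Without both libraries with neural transcripts it was still called, at -5.35 ± 0.42 in Ahr-null livers (adjusted p = 1.89e-05) and -5.91 ± 0.41 in control livers (adjusted p = 5.05e-06). These values lay further apart than the first pair, and the interaction of Slc22a26 was then 0.55 ± 0.75 (edgeR adjusted p = 0.881), not called. In both genotypes its highest male library, 0.197 CPM in Ahr-null and 0.892 CPM in control livers, lay far below its lowest female library, at 4.87 CPM in Ahr-null and 31.9 CPM in control livers. Slc22a27 was lower in males too, at -3.46 ± 0.74 in Ahr-null livers (adjusted p = 0.0918, not called) and -4.77 ± 0.80 in control livers (adjusted p = 0.0214, called). The call of Slc22a27 in control livers ended without both libraries that stood apart (-4.37 ± 0.94, adjusted p = 0.119) and without control male replicate 1 alone (-4.37 ± 0.89, adjusted p = 0.131). It also ended without Ahr-null male replicate 1, Ahr-null female replicate 3, control male replicates 2 or 3, or control female replicates 1 or 2, with an adjusted p between 0.0513 and 0.199 over these 7 fits. It held without Ahr-null female replicate 1.

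The other cluster members differed by sex in both directions. Slc22a29 was not called, at -1.27 ± 0.41 in Ahr-null livers (edgeR adjusted p = 0.386) and -1.27 ± 0.41 in control livers (adjusted p = 0.496), although its male and female libraries did not overlap in either genotype. Slc22a28 had higher values in males, at 2.06 ± 0.58 in Ahr-null livers (adjusted p = 0.250) and 1.31 ± 0.56 in control livers (adjusted p = 0.783), also without overlap and also not called. Slc22a30 was at 1.05 ± 0.38 in Ahr-null livers (adjusted p = 0.469), without overlap, and at 0.42 ± 0.38 in control livers (adjusted p = 0.999), with overlap. Slc22a28, Slc22a29 and Slc22a30 also stayed uncalled without both libraries with neural transcripts. Slc22a28 was then at 1.57 ± 0.36 in Ahr-null livers (edgeR adjusted p = 0.0679) and 1.49 ± 0.33 in control livers (0.0768). Slc22a29 was then at -1.51 ± 0.34 in Ahr-null livers (adjusted p = 0.0668) and -1.003 ± 0.35 in control livers (0.332). Slc22a30 was then at 0.72 ± 0.29 in Ahr-null livers (adjusted p = 0.273) and 0.601 ± 0.28 in control livers (0.472). Of the single genes, Slc22a7 had the largest sex difference, 1.47 ± 0.40 in control livers (adjusted p = 0.294) without overlap and 0.48 ± 0.38 in Ahr-null livers (adjusted p = 0.793) with overlap. No sex difference of Slc22a5, Slc22a18 or Slc22a23 was called.

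**Figure D3:**
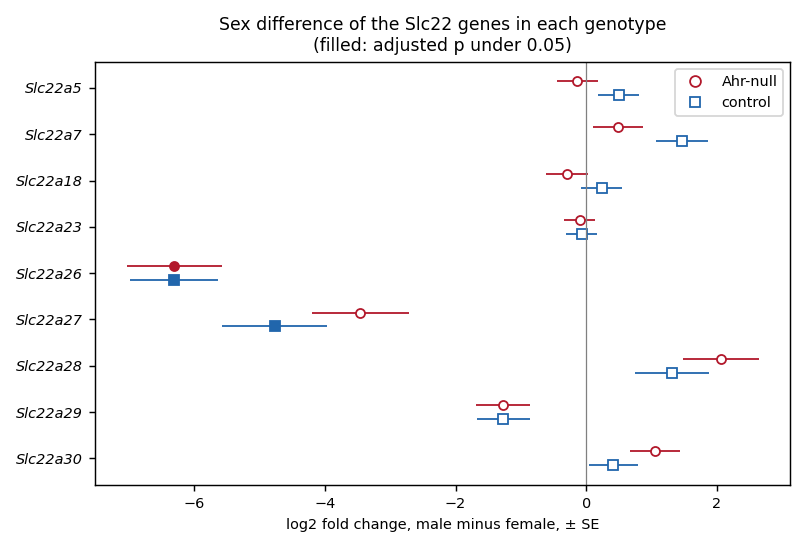
Male minus female log2 fold change of each Slc22 gene with its standard error, in Ahr-null and in control livers; filled symbols have an edgeR adjusted p under 0.05. Slc22a26 lies near -6.3 in both genotypes, Slc22a27 and Slc22a29 are also negative, and Slc22a28 and Slc22a30 are positive.

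In all, edgeR called 1 of the 9 members for sex in Ahr-null livers, against 0.279% of all genes, and 2 of the 9 in control livers, against 0.352% of all genes. DESeq2 called 3 in Ahr-null livers (Slc22a26, Slc22a27 and Slc22a28, against 1.66% of all genes), limma on the deposited values 2 (Slc22a26 and Slc22a27, against 0.330%) and limma-voom 0, with Slc22a26 at an adjusted p = 0.0516. In control livers Slc22a26 was the 1 member called by limma-voom, against 0.264% of all genes, and by edgeR without both libraries with neural transcripts, against 0.574%. Libraries of the sexes did not overlap for 5 members in Ahr-null livers, against 11.2% of all genes, and for 6 in control livers, against 18.6%. The differences between the genotypes in these sex contrasts are the interaction given above, which was not called for any member.

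Summed per kilobase, the 5 cluster genes gave 57.6 ± 19.4 CPM per kb (SD, n = 3; 46.1 to 80.0) in Ahr-null males and 105.3 ± 24.5 (77.8 to 125) in control males. In females the sum was 36.4 ± 9.11 (26.5 to 44.5) in Ahr-null livers and 100.7 ± 13.4 (86.4 to 113) in control livers. The female ranges did not overlap, and the male ranges met in 1 liver of each genotype. For markers of other liver cells, some sums differed between the same groups and others overlapped. In CPM of the unscaled total, the 6 stellate cell and fibroblast markers summed to 371 to 1187 in Ahr-null females and 250 to 264 in control females, and the 5 lymphocyte markers to 17.0 to 26.9 in Ahr-null females and 10.2 to 11.4 in control females. In males the stellate sums were 252 to 688 in Ahr-null livers and 208 to 385 in control livers, and the lymphocyte sums 15.1 to 28.7 in Ahr-null livers and 4.43 to 15 in control livers. The 6 cholangiocyte markers overlapped in both sexes, at 41.3 to 125 in Ahr-null males against 30.2 to 68.9 in control males, and 43.3 to 290 in Ahr-null females against 21.3 to 68.2 in control females. The 5 sinusoidal endothelium markers also overlapped in both sexes. They summed to 134 to 176 in Ahr-null males and 97.1 to 136 in control males, and to 96.4 to 179 in Ahr-null females and 85.4 to 129 in control females. After TMM scaling the averaged fold change was positive for 6 of 6 stellate cell and fibroblast, 5 of 5 lymphocyte and 6 of 6 cholangiocyte markers, and edgeR called 0 of them (1, 2 and 1 had an unadjusted p under 0.05). Over all tested genes 45.8% had a negative fold change, 1.06% were called and 15.3% had an unadjusted p under 0.05. Of the 5 endothelium markers 2 were positive and 3 negative, with 0 called. Marco, a scavenger receptor gene of macrophages, was the 1 called of 6 Kupffer cell markers, at 2.16 ± 0.34 (adjusted p = 0.0148). Of these 6, the averaged fold change was positive for 4 and negative for 2, with Cd5l at -0.52 ± 0.22 (edgeR adjusted p = 0.282). In females 3 of the 6 were positive and 3 negative. The part of the markers of other cells and of the hepatocyte markers in the results was not tested. Moving reads from 1 copy to another inside the cluster would change this sum only through their lengths. Whether reads that fit several copies were left out is unknown, and leaving them out would change the sum itself. Slc22a30 gave most of it, with 81.8% ± 1.42 in Ahr-null males and 81.2% ± 0.860 in control males, and 59.8% ± 15.8 in Ahr-null females and 64.3% ± 7.21 in control females. Slc22a26 gave 0.0990% ± 0.0413 in Ahr-null males and 0.163% ± 0.0977 in control males, and 14.7% ± 16.0 in Ahr-null females and 14.8% ± 2.17 in control females. The wide spread in Ahr-null females came with replicate 1, where Slc22a26 alone made up 33.1% of the sum.

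**Figure D4:**
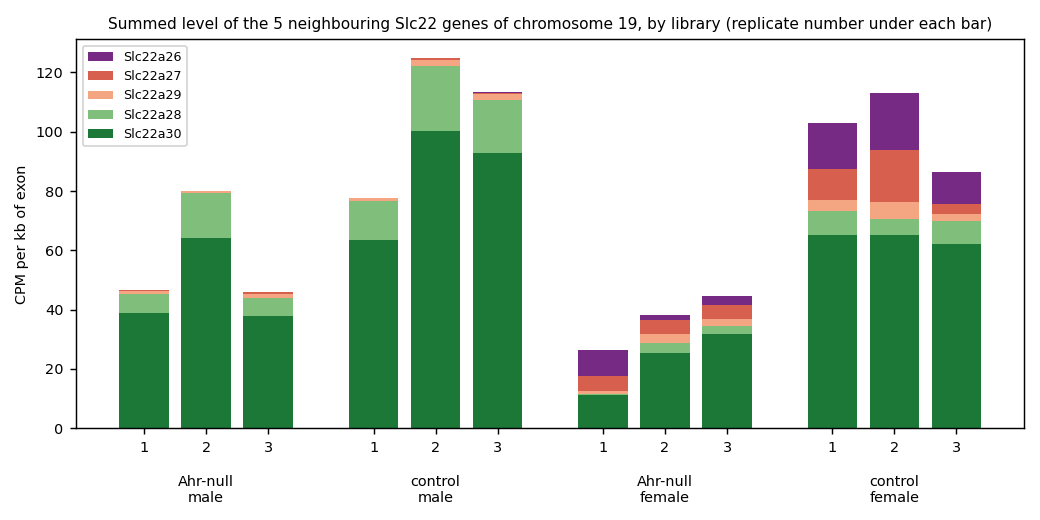
Stacked levels of the 5 chromosome 19 cluster genes in CPM per kb of exon, 1 bar per library, with Ahr-null left of control in each sex. The total is at most 44.5 in Ahr-null females and at least 86.4 in control females, and Slc22a26 and Slc22a27 take little of the male bars.

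Within a sex, the mean split of counts in the near-identical pair was similar in both genotypes. Slc22a28 held 10.1% ± 1.87 (SD, n = 3) of the counts of Slc22a28 and Slc22a30 together in Ahr-null males and 10.9% ± 0.633 in control males. In females it held 4.67% ± 2.75 in Ahr-null livers and 6.18% ± 1.13 in control livers. Male and female ranges did not overlap in either genotype, at 8.86% to 12.2% in Ahr-null males against 1.69% to 7.11% in Ahr-null females, and 10.2% to 11.5% in control males against 4.88% to 6.85% in control females. The lowest share, 1.69%, was that of Ahr-null female replicate 1, from 7 counts of Slc22a28. How reads that fit both genes were counted is unknown, so the split is uncertain. No test was made of this share.

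The genes with an established name whose log2 CPM ranked most like a member over the 12 libraries are given as a description, since all share libraries and groups. For Slc22a26 they were Sult2a1, a hydroxysteroid sulfotransferase gene (Spearman rho 0.972), the hepcidin gene Hamp2 (0.937) and Gbp2, a guanylate-binding protein gene (0.930). For Slc22a27 they were Sult2a4 (0.922), Zbtb26 (0.902) and its neighbour Slc22a26 (0.902). For Slc22a29 they were Sult2a6 (0.938), the acyl-CoA thioesterase gene Acot4 (0.937) and Acss3 (0.916). The nearest gene to each of these 3 members was a sulfotransferase gene of the Sult2a family. For Slc22a30 the nearest was Dusp1, a MAP kinase phosphatase gene (0.979), followed by the acetyltransferase family genes Nat8f3 and Nat8f7 (0.916 each). For Slc22a28 they were Coq10a (0.965), Nhej1 (0.958) and Ldah (0.951), and for Slc22a5 the fatty acid oxidation gene Eci2 (0.930), Upp2 (0.930) and the lysosomal cholesterol transporter gene Npc1 (0.916). Within the cluster, Slc22a28 and Slc22a30 correlated at 0.853, and Slc22a26 at 0.902 with Slc22a27 and 0.895 with Slc22a29.

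Of the 16 other Slc22 genes, 6 had enough counts to be tested. None was called for the averaged genotype by edgeR, against 1.06% of all genes. An unadjusted p under 0.05 was found for 1 of the 6, against 15.3% of all genes. Their median was -0.19, against 0.04 for all genes. Slc22a4, a carrier of ergothioneine whose transcripts share sequence with Slc22a5, had a log2 fold change of -0.81 ± 0.37 (adjusted p = 0.317), and Slc22a21, the carnitine transporter gene next to Slc22a5, had -0.61 ± 0.28 (adjusted p = 0.332). Genes typical of kidney, such as Slc22a6, Slc22a8 and Slc22a12, had at most 10 counts each over all libraries.

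Among 18 other uptake and efflux carriers of hepatocytes, the averaged genotype fold change was negative for 12 and positive for 6, with a median of -0.29. An unadjusted p under 0.05 was found for 7, against 15.3% of all genes. EdgeR called 2 as lower and 0 as higher, against 1.06% of all genes called. The 2 were Slc10a1, the sodium-dependent bile acid uptake carrier (-1.16 ± 0.22, edgeR adjusted p = 0.0275), and Slco1b2, an uptake carrier of organic anions (-1.33 ± 0.28, adjusted p = 0.0410). Slc51b went the other way, at 2.31 ± 0.72 (edgeR adjusted p = 0.160), from at most 2.07 CPM in any group mean. Of 12 genes of carnitine synthesis and acylcarnitine handling, the partners of Slc22a5, none was called. An unadjusted p under 0.05 was found for 2, against 15.3% of all genes, and the median was 0.09. Slc25a20, the mitochondrial carnitine-acylcarnitine exchanger, was nearest at -0.75 ± 0.17 (adjusted p = 0.0589, and 0.0424 without both libraries with neural transcripts), and Crot, a peroxisomal acyltransferase gene, was at 0.80 ± 0.27 (adjusted p = 0.185). Of 9 tested imprinted genes of the Slc22a18 region, 5 had a positive and 4 a negative fold change. EdgeR called 2 as higher and 0 as lower, against 1.06% of all genes called. Phlda2, a growth-restraining placental gene next to Slc22a18, had 2.63 ± 0.51 (adjusted p = 0.0303) from at most 1.25 CPM in any group mean, and H19 had 3.53 ± 0.71 (adjusted p = 0.0363, and 0.0995 without both libraries with neural transcripts). Cdkn1c, its neighbour on the other side, was at -0.09 ± 0.29.

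Among 17 transcription factors and receptors known for liver transporter or sex-biased genes, edgeR called none for the averaged genotype, against 1.06% of all genes. Their fold change was negative in 15, against 45.8% of all genes, and 5 had an unadjusted p under 0.05, against 15.3%. The median was -0.34, against 0.04 for all genes. Nr1i3, the constitutive androstane receptor, was at -1.83 ± 0.45 (adjusted p = 0.0798, and 0.0112 without both libraries with neural transcripts), and Ppara, the fatty acid receptor, at -0.49 ± 0.19 (adjusted p = 0.235). For sex, Cux2, a repressor of male-biased genes in females, was called as lower in control males, at -4.49 ± 0.81 (adjusted p = 0.0385, and 0.0946 without both libraries with neural transcripts), and had -4.28 ± 0.82 in Ahr-null livers (adjusted p = 0.0574, and 0.0346 without both libraries).

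Known sex-biased liver genes were compared between the labelled sexes, although Ahr-null female replicate 1 went partly against its sex label, as given above. For 14 tested female-biased liver genes the median fold change, male minus female, was -2.46 in Ahr-null livers and -3.42 in control livers. EdgeR called 1 of them as lower in Ahr-null males, against 0.279% of all genes called for sex there. It called 7 as lower in control males, against 0.352%. Without both libraries with neural transcripts these counts were 3 in Ahr-null and 5 in control livers. Sult2a1 was called in both genotypes, at -3.44 ± 0.61 in Ahr-null livers (edgeR adjusted p = 0.0336) and -7.24 ± 0.55 in control livers (adjusted p = 5.22e-05). Of 14 male-biased genes, 6 were called as higher in Ahr-null males (median 3.50; 8 without both libraries) and 7 in control males (median 3.43; 7 without both), and Cyp2d9, a steroid hydroxylase gene, was at 4.34 ± 0.36 in Ahr-null livers and 4.53 ± 0.36 in control livers. For the averaged genotype, edgeR called 2 of the 14 female-biased genes as lower, against 1.06% of all genes called in either direction. They were Sult3a1 (-5.27 ± 0.69, adjusted p = 0.00741) and Sult2a1 (-3.06 ± 0.47, adjusted p = 0.0144). The list went both ways, with 8 negative and 6 positive fold changes. An unadjusted p under 0.05 was found for 6, against 15.3% of all genes. Cyp2b9 was at 5.07 ± 1.53 (edgeR adjusted p = 0.148), with means of 61.9 CPM in Ahr-null females and 0.120 CPM in control females. None of the 14 male-biased genes was called by edgeR, with 9 negative, 5 positive and 5 at an unadjusted p under 0.05. Without both libraries with neural transcripts 3 female-biased genes and 1 male-biased gene, Cyp2d9, were called as lower, against 3.14% of all genes called.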

How the data were processed

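Raw whole-number read counts per gene were deposited by the authors for 12 liver libraries, together with variance-stabilised values on a log2 scale, which the file headers credit to DESeq2. FastQC 0.11.8, Trim Galore 0.6.5, STAR 2.7.8, DESeq2 1.28.1 and build GRCm38 are named in the submitters' processing notes. The read counter, its strand setting and its treatment of reads that fit several genes are unknown from the sources at hand. Groups come from the labels. Nothing in the labels says more of the mice than 1 liver per sample, so a p-value reflects only the spread between these samples, part of which may be technical.

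The main test was edgeR 4.0.16 under R 4.3.3 (TMM scaling, filterByExpr by the 4 groups, robust quasi-likelihood fit with a mean per group, 8 residual degrees of freedom, two-sided tests). Adjusted p-values are Benjamini-Hochberg over the 13641 tested genes, and a standard error is the fold change over the square root of its F statistic. For a fold change near 0 this can be too small. The interaction of Slc22a26 got 0.156 this way, where its genotype difference had 0.84 in males and 0.52 in females. In all, 23 alternatives were run, with DESeq2 1.42.0 and limma 3.58.1 among them. The alternative without both libraries with neural transcripts was chosen after seeing the data. Positions and transcript sequences are from GENCODE for GRCm38, found through the Ensembl ID of 27225 among 27304 genes, and coding sequences and promoters were aligned with Biopython 1.88. CPM per kb divides by the annotated exon length. The named genes are the 9 members, up to 4 genes with the smallest p per list, the 3 tested genes most like a member by Spearman correlation, and the nearest tested neighbours, from which the text gives a part. Gene models without an established name were left out of the correlated genes and of the neighbours. The members and lists were chosen with earlier results of these data known.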

Additional observations from a re-analysis of the deposited data

How the results depend on the processing

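Over all 54 log2 fold changes of the members (9 genes, 6 contrasts) and 23 alternatives, 1016 of 1106 values kept their direction and their side of the threshold, 10 lost the call, 17 gained it and 63 turned, 0 of them past the threshold. Of those that turned, 61 belong to the 19 differences smaller than their standard error. Slc22a18 in females turned with Ahr-null female replicate 1: the difference of 0.43 was -0.019 without that library, -0.019 without both libraries with neural transcripts, and -0.019 to 0.64 when each library was left out in turn. The averaged difference of Slc22a23, -0.06, was 0.42 with libraries scaled by totals alone and -0.17 to 0.021 when each library was left out, and that of Slc22a27, -0.43, was 0.16 with totals alone. The interaction of Slc22a26, 0.01, was -0.12 with totals alone, -0.017 with a filter of at least 1 CPM in 6 libraries, -0.024 with DESeq2 and -0.38 to 0.93 when each library was left out, so it has no settled sign. The number of members called for the averaged genotype, 0, was 3 with DESeq2, 1 with limma on the deposited values, 0 to 3 when each library was left out in turn (3 when Ahr-null female replicate 1 was omitted, 1 for Ahr-null male replicate 2) and 3 without both libraries with neural transcripts. In females, 0 became 1 with DESeq2, 0 to 1 when each library was left out and 1 without both. For sex in Ahr-null livers, 1 became 3 with DESeq2, 0 with limma-voom and 2 with limma on the deposited values. For sex in control livers, 2 became 1 with limma-voom, 1 to 2 when each library was left out and 1 without both libraries. The cause of these changes was not tested. For genotype in males and for the interaction the count stayed at 0 in every alternative run. Where leaving out a library leaves 2 in its group, the spread is pooled over the 4 groups. Scaling by library totals alone moved the median of all genes to 0.53 for the averaged genotype, 0.47 in males and 0.58 in females, and turned the sign of 2, 3 and 2 of the 9 members there, and of none relative to that median. No paired analysis was possible because the replicate numbers follow accession order and pair no mice. Low counts limit Slc22a26 and Slc22a27 in males, where a library held 2 to 14 and 1 to 47 counts.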
